A study of Bos taurus with 20 samples.

Results

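Tubulin transcripts were followed through the cells of the bovine antral follicle for 7 genes, namely TUBA1C, TUBA1B, and TUBA4A of the alpha family, TUBB2B, TUBB3, and TUBB6 of the beta family, and TUBG1 of the gamma family. They were taken by symbol from the probe annotation and made up 7 of the 22550 genes or transcripts on the array, and 22 of its 61325 non-control spots. Because the 7 were picked with values from these arrays in view, their own differences are given as descriptions, with a standard error and the overlap of the arrays but without a test. Tests were run over all genes of the array and are given for tubulins outside the 7 and for other microtubule genes.

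RNA had been extracted from theca cells scraped from the follicular wall (TH), from the granulosa (GC) and cumulus (CC) cells, and from the oocytes of immature follicles of 3 to 6 mm from slaughtered animals, and from CC of complexes that had been through 4 h of in vitro maturation (IVM). Neither breed nor age is given in the sources used here, and no group is labelled with a mutation or a drug. Each of the 5 groups had 4 arrays, hybridized in 1 colour with Cy3-labelled cRNA from 200 ng of total RNA. The samples are labelled as replicates, without a statement of which animals or pools they came from, so the spread may be partly technical. Values are log2 processed signals scaled to the array's own 75th percentile, and 1 unit is a 2-fold difference. All array values were relative to the RNA loaded, so that fewer cells of a type and less RNA per cell cannot be told apart.

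The share of probes well above background was 49.3 to 68.8% over the arrays, lowest on oocyte replicate 2, and 54.2 to 58.3% on the arrays of CC after IVM against 58.9 to 62.8% on those of CC. Replicates 1 and 2 of TH, GC, CC, and oocytes shared a slide and replicates 3 and 4 another, whereas the 4 arrays of CC after IVM lay alone on slide 3, so that slide and IVM cannot be told apart. By their highest means, markers mostly matched the labels other than GC. All 5 theca markers had their highest mean in TH, all 6 oocyte markers in oocytes, and 3 of 4 granulosa and cumulus markers in CC, the exception being INHBA in CC after IVM. In GC 0 of these 4 were highest. The summed theca markers lay between 4.90 and 6.84 in GC, between 4.66 and 5.03 in CC, and between 9.17 and 9.70 in TH. Of 7 genes known to respond early in maturation, 5 were highest in CC after IVM, where AREG and EREG were above background on all 4 arrays and on 0 arrays of the other groups. The summed oocyte markers lay between -0.83 and 1.59 in CC, between -2.64 and -0.84 in CC after IVM, and between 7.96 and 8.37 in oocytes, and all 6 were above background on the 4 CC arrays.

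Microtubules are hollow polymers of alpha- and beta-tubulin dimers, and gamma-tubulin sits in the ring complexes from which they are nucleated. The isotypes are encoded by separate genes that differ mostly near the end of the protein, and alpha-tubulin is further modified by removal and return of a final tyrosine and by acetylation. In the follicle, microtubules build the meiotic spindle of the oocyte and run in the projections by which CC reach it through the zona pellucida. Cells also adjust tubulin mRNA to the pool of free dimers, through a factor, TTC5, that recognises tubulin as it is being translated.

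The 22 spots held 19 different 60-base sequences on 10 transcripts. On UMD 3.1 the array placed TUBA1C at chr5:30728352-30735852, TUBA1A at chr5:30821251-30825700, and TUBA1B at chr5:30864529-30868119, so these alpha-tubulins lie close together. TUBA4A was at chr2:107921714-107925511, TUBB3 at chr18:14761260-14769914, TUBB6 at chr24:43249500-43250564, and TUBG1 at chr19:43316471-43321165 close to TUBG2 at chr19:43360443-43365350. TUBB2B stood for 4 transcripts at 2 places on chromosome 23, chr23:50354843-50357631 for a pair of them, and chr23:50390226-50394279 and chr23:50390117-50394087 for the other pair. RefSeq (ARS-UCD2.0) lists TUBB2B and TUBB2A next to each other on that chromosome with no gene start between them, and TUBB2A is not a name on this array, so TUBB2B is reported as a value that may take in both genes. Where in a transcript a probe lies is not given in the files. The AATAAA hexamer, known as a polyadenylation signal, was therefore searched on the strand as given. It was found in 3 of the 19 sequences (1 each of TUBA1C, TUBA4A, and TUBG1), as in 7.97% of the 50909 probe sequences of the array.

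Sequences on which the comparisons below rest are shown because near-identical family members could share signal. The first group gives the 30 bases around the hexamer (in capitals) in the TUBA1C, TUBA4A, and TUBA1A probes that hold it, followed by the whole other probe of TUBA4A and the TUBB2B probe placed on transcripts of both chromosome 23 positions.
TUBA1C second probe: gccctgtcttatcAATAAAggtgatatttc
TUBA4A second probe: aaatcctttcgaAATAAAgtctccttgcac
TUBA1A first probe: ccgatgggtttgAATAAAgtattccctgtc
TUBA4A first probe: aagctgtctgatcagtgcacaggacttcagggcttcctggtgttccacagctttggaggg
TUBB2B probe 5: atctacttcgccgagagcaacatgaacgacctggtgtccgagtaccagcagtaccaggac
A probe of TUBB6 and a probe of the locus the array names TUBB overlap over 54 bases, of which 47 match (87.0%). Capitals mark the 7 bases at which they differ.
TUBB6 first probe: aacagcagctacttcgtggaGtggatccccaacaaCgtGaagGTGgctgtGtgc
TUBB second probe: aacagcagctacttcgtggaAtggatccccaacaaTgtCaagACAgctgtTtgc
Among the 7 genes, the only other stretch of at least 30 bases shared with a probe of a different tubulin at over 75% identity was 32 bases of a TUBB2B probe with TUBB5, with 7 mismatches. How much these probes bind transcripts of relatives was not tested.

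TUBA1C, one of the broadly expressed alpha-tubulins, was high in oocytes and in CC after IVM and lower in the other cells. Its values were 7.83, 6.87, 7.39, and 7.68 in the oocyte arrays, and 7.66, 8.64, 7.16, and 7.82 in CC after IVM. In CC they were 5.06, 5.36, 5.18, and 5.37, in GC 5.24, 5.41, 5.43, and 5.84, and in TH 3.77, 4.70, 3.96, and 4.20. All oocyte arrays and all arrays of CC after IVM lay above every TH, GC, and CC array, and all TH arrays lay below all others. Oocytes exceeded the somatic mean by 2.48 ± 0.19 (SE), a 5.59-fold difference. CC after IVM exceeded CC by 2.58 ± 0.29 (SE), 5.97-fold. CC after IVM (7.82 ± 0.61, SD, n = 4) and oocytes (7.44 ± 0.42) overlapped, as did GC (5.48 ± 0.26) and CC (5.24 ± 0.15). Both probes gave the same picture, with 2.66 and 2.31 for the oocyte difference and 2.68 and 2.48 for the IVM difference. The IVM difference stayed between 1.88 (quantile normalization) and 2.60 over the scalings tried, and between 2.30 and 2.80 when 1 array was left out. Over the same arrays the oocyte markers ZP2 (-3.17 ± 0.87), ZP3 (-1.24 ± 0.45), ZP4 (-3.44 ± 0.90), and NLRP5 (-2.02 ± 0.63) were lower after IVM, and GDF9 and BMP15 did not pass. Their part in the TUBA1C value was not tested.

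TUBA1B, its neighbour on chromosome 5 and likewise a broadly expressed alpha-tubulin, was much flatter. Group means ran from 6.46 ± 0.22 (SD) in oocytes over 6.53 ± 0.54 in TH, 6.75 ± 0.55 in GC, and 6.98 ± 0.14 in CC to 7.41 ± 0.32 in CC after IVM, and each group overlapped the next in this order. At the ends of the order the oocyte arrays (6.16 to 6.70) did lie below all CC arrays (6.83 to 7.14) and all arrays of CC after IVM (6.98 to 7.74). The oocyte difference from the somatic mean was -0.29 ± 0.23 (SE) and that of CC after IVM from CC was 0.43 ± 0.21. Neither had a settled direction, because quantile normalization gave 1.42 and -0.17, and the deposited log2 values 0.39 and -0.03.

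TUBA4A, an alpha-tubulin known from platelets and motor neurons, differed between its 2 probes, each spotted 2 times. On the probe with the hexamer, the signal was -0.37, 1.19, -0.74, and 0.96 in TH, but -4.81, -2.87, -3.52, and -3.49 in GC and -4.93, -2.87, -3.80, and -3.63 in CC. After IVM the same probe read 1.24, 1.45, -0.31, and 0.80, and in oocytes 0.91, 0.87, 0.44, and 1.04. GC and CC were thus far below the other 3 groups with no overlap, and CC after IVM exceeded CC by 4.61 ± 0.58 (SE), 24.4-fold. On the first probe, CC read -1.93, -1.20, -1.56, and -1.19 and CC after IVM -1.53 to -0.34, which overlapped, with a difference of 0.57 ± 0.31. The oocyte arrays, at -0.45 to 0.46, were above all somatic arrays on this probe, by 1.78 ± 0.29 over the somatic mean. The median over the 4 spots gave 2.60 ± 0.31 for CC after IVM against CC and 2.48 ± 0.31 for oocytes against the somatic mean, each a middle between unlike probes.

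Both probes of TUBA4A were well above background on all 20 arrays. In TH, where the hexamer probe alone was high, the summed endothelial markers were above those in GC and CC, and the summed blood cell markers overlapped those in GC. The summed level of 5 endothelial markers was 2.38 to 3.13 in TH, -3.13 to -1.11 in GC, and -3.31 to -3.02 in CC, with CDH5 on 0 and PECAM1 on 0 of the CC arrays. The sum of 7 blood cell markers was 0.09 to 0.92 in TH, -0.30 to 0.17 in GC, and -0.98 to -0.16 in CC, with PTPRC above background on all 4 TH arrays and on 0 of GC and CC. Of the platelet genes in that list, ITGA2B had a lower mean in TH (-1.95) than in GC (-0.82) and CC (-0.81), PF4 was above background on 2 TH arrays, and PPBP on 0. CDH5 was above background on 1 TH array. In CC after IVM these sums, -3.75 to -2.43 and -1.25 to 0.36, overlapped those in CC. Single members did differ after IVM. VWF (1.72 ± 0.34, SE), CD14 (2.33 ± 0.83), HBB (1.36 ± 0.44), and PF4 (1.60 ± 0.33) passed as higher. TEK (-1.72 ± 0.43) and ITGA2B (-1.36 ± 0.26) passed as lower. HBB and PF4 were above background on 2 arrays of CC after IVM and 0 of CC. CDH5, PTPRC, and PPBP passed as higher while above background on 0 arrays of both groups. The part of these markers in the TUBA4A values was not tested.

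**Figure D1:**
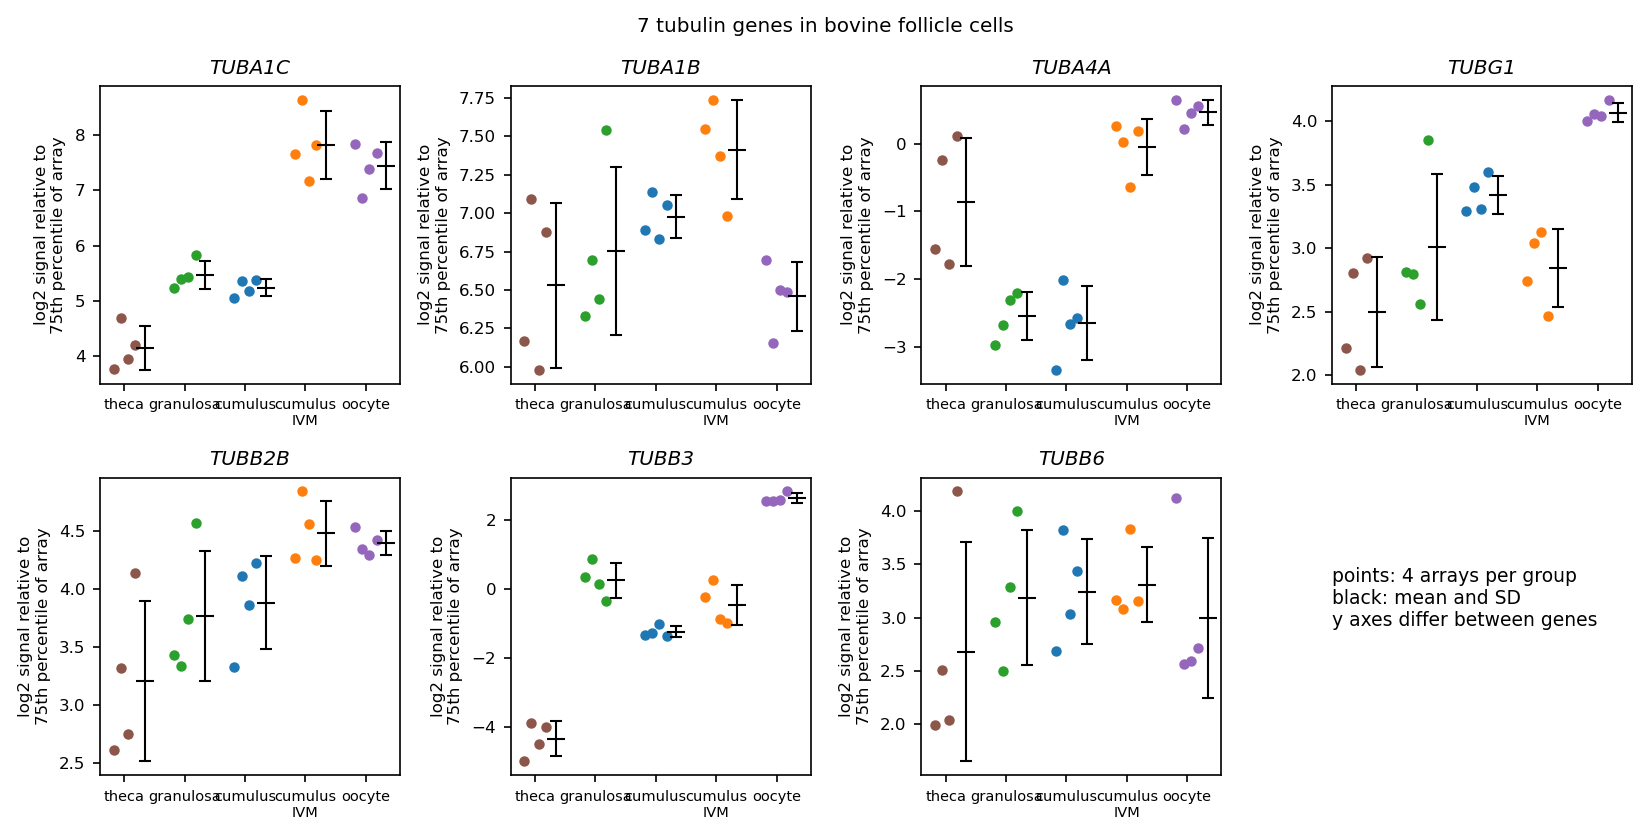
Signal of the 7 tubulin genes on each array (points, 4 arrays per group), with the mean and SD in black. The y axes give log2 signal relative to the 75th percentile of the array and differ between genes. TUBA1C and TUBA4A were high in CC after IVM and oocytes, TUBB3 and TUBG1 were highest in oocytes, and the groups of TUBB6 overlapped throughout. For TUBA4A, TH overlapped CC after IVM.

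Among the beta-tubulins, TUBB3, the class III isotype best known from neurons, had the widest range of the 7 genes. It read 2.53, 2.55, 2.57, and 2.83 in oocytes, and 0.34, 0.88, 0.14, and -0.36 in GC. In CC it read -1.32, -1.27, -1.01, and -1.36, and in TH -4.99, -3.87, -4.47, and -3.98. Oocytes, GC, CC, and TH formed a descending order in which no group overlapped another. Oocytes exceeded the somatic mean by 4.39 ± 0.21 (SE), 21.0-fold, and TH by 6.95 ± 0.26, 123-fold. The TH signal was low, the first probe being well above background on 3 of 4 TH arrays. With normexp the oocyte difference from the somatic mean was 3.84. After IVM the CC arrays read -0.24, 0.25, -0.88, and -0.97, all above the CC arrays by a small margin, with a difference of 0.78 ± 0.28, and overlapped GC. On the second probe alone the lowest array of CC after IVM (-1.07) lay below the highest CC array (-1.03). The IVM difference was 0.34 with the log2 values that the authors deposited.

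Of 7 nerve and glia markers, 2 had their highest mean in oocytes, NEFL and DBH. The summed level was 4.72 to 5.11 in oocytes, nearly all of it from the neurofilament gene NEFL (mean 4.82), against -0.0084 to 0.47 in TH, -2.02 to -1.68 in GC, and -1.25 to -0.43 in CC. NEFL was higher in oocytes (adjusted p = 4.4e-12 in limma), being above background on all 4 oocyte arrays but on 3 TH, 0 GC, and 1 CC arrays. DBH, a gene of noradrenaline synthesis, was above background on 3 oocyte, 2 TH, 4 GC, and 4 CC arrays. It was higher in oocytes than in the somatic mean by 1.11 ± 0.41 (SE). S100B (2.82 ± 0.24, adjusted p = 2.2e-08 in limma) and NEFM (1.46 ± 0.32) were also higher in oocytes and passed. SOX10 was lower in oocytes than in the somatic mean (-0.91 ± 0.20, adjusted p = 0.00083), GAP43 differed by -0.14 ± 0.17, which did not pass, and PRPH was higher than the somatic mean (1.71 ± 0.39) but had its highest mean in TH. In CC after IVM the sum was 0.97 to 1.71. There S100B (2.70 ± 0.28), NEFM (1.67 ± 0.37), PRPH (1.26 ± 0.38), and GAP43 (0.81 ± 0.28) were higher than in CC and passed. SOX10, DBH, and NEFL did not pass after IVM. The part of these genes in the TUBB3 values was not tested.

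TUBB2B depended on the probe. Over all 8 spots the group means were 3.20 ± 0.69 (SD) in TH, 3.77 ± 0.56 in GC, 3.88 ± 0.40 in CC, 4.48 ± 0.28 in CC after IVM, and 4.40 ± 0.10 in oocytes. This gave 0.78 ± 0.27 (SE) for oocytes against the somatic mean and 0.60 ± 0.25 for CC after IVM against CC, small differences in which the oocyte arrays overlapped GC. After IVM the largest differences among its 7 probes came from the 2 of 1 transcript at the second position, chr23:50390226-50394279. On the first of these, CC read 4.42, 5.01, 4.94, and 5.18, CC after IVM 6.24, 7.07, 6.11, and 6.11, and oocytes 5.83, 5.87, 6.13, and 6.17. Both of these probes put all arrays of CC after IVM above all CC arrays, by 1.49 ± 0.28 and 1.53 ± 0.28, and all oocyte arrays above all somatic arrays, by 1.26 ± 0.16 and 1.35 ± 0.16. On the 2 probes of 1 transcript at the first position, CC after IVM differed from CC by 0.22 ± 0.57 and 0.28 ± 0.24, with overlap. The probe printed above, placed on transcripts of both positions, lay between, with 0.61 ± 0.25. The remaining probes, 6 at the second and 7 at the first position, gave 0.72 ± 0.82 and 0.75 ± 0.24 after IVM. In oocytes the probes of the first position differed among themselves. Probes 1 and 2 gave 0.42 ± 0.70 and 0.26 ± 0.27, with overlap, whereas probe 7 gave 1.28 ± 0.21 with all oocyte arrays above all somatic arrays. Probe 6 at the second position gave 1.85 ± 0.71, with overlap. Of the 7 probe sequences, 3 had no overlap between CC and CC after IVM.

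TUBB6, a beta-tubulin of many non-neuronal cells, showed no difference larger than its spread. Its group means lay between 2.68 ± 1.03 (SD) in TH and 3.31 ± 0.35 in CC after IVM, and every group overlapped every other. The oocyte difference was -0.04 ± 0.40 (SE) and the IVM difference 0.06 ± 0.29, and the oocyte difference was 0.60 on slide 1 and -0.68 on slide 2. Single arrays stood out, with 4.19 in TH replicate 4 against 2.00 to 2.51 in the other TH arrays, and 4.12 in oocyte replicate 1 against 2.56 to 2.71. Without that oocyte array the oocyte difference was -0.41.

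**Figure D2:**
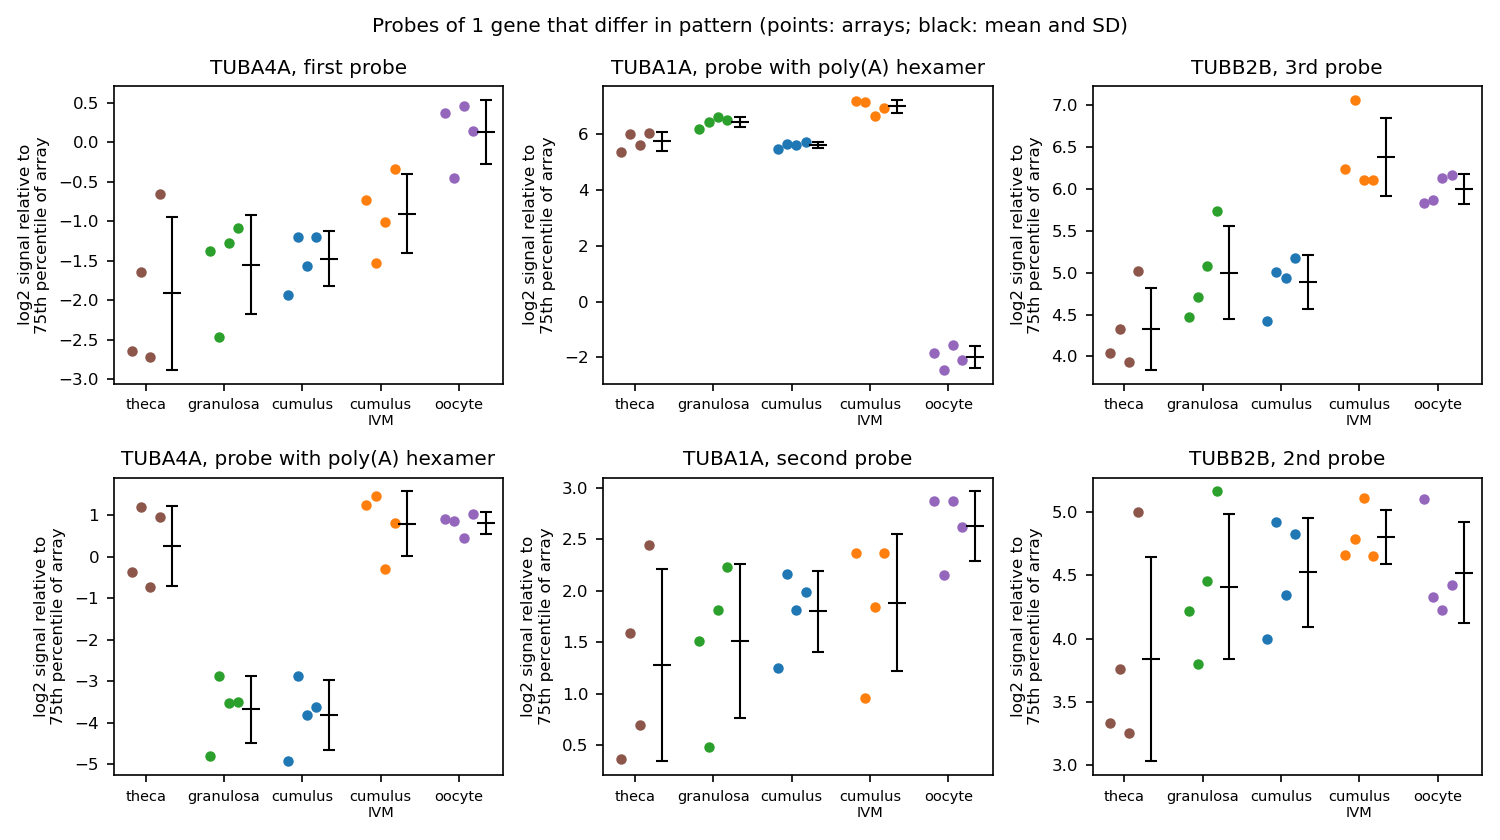
Probes of TUBA4A, TUBA1A, and TUBB2B whose patterns differ within a gene, as log2 signal relative to the 75th percentile of the array (points, arrays; black, mean and SD, n = 4). The hexamer probe of TUBA4A rose from -3.81 in CC to 0.80 after IVM while the first probe went from -1.47 to -0.90, and the hexamer probe of TUBA1A lay at -1.99 in oocytes while its second probe was at 2.63.

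TUBG1, the gamma-tubulin of centrosomes and spindle poles, was highest in oocytes and lower after IVM. It read 4.00, 4.06, 4.04, and 4.17 in oocytes, which lay above all somatic arrays. In CC it read 3.29, 3.48, 3.31, and 3.60 and in CC after IVM 2.74, 3.04, 3.13, and 2.46, with no overlap between them. GC read 2.81, 2.80, 2.56, and 3.85 and TH 2.22, 2.80, 2.04, and 2.93, so that GC overlapped all 3 other somatic groups. Oocytes exceeded the somatic mean by 1.09 ± 0.21 (SE), 2.13-fold, and CC after IVM was below CC by 0.58 ± 0.21, 1.49-fold. The 2 probes gave 0.93 and 1.25 for oocytes and -0.57 and -0.58 after IVM. The IVM difference stayed negative, from -1.01 to -0.55, under each scaling tried. TUBG2, its close paralog, moved the same way by more. It was 4.35 ± 0.16 higher in oocytes (20.3-fold, adjusted p = 1.3e-12 in limma) and 1.34 ± 0.19 lower after IVM (2.53-fold, adjusted p = 0.00051).

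Set side by side, 4 of the 7 genes (TUBA1C, TUBA4A, TUBB3, and TUBG1) had all 4 oocyte arrays above all 12 somatic arrays, as did 25.3% of all genes on the array. For IVM, 4 of 7 (TUBA1C, TUBA4A, TUBB2B, and TUBB3) had all arrays of CC after IVM above all CC arrays, as did 29.1% of all genes, and TUBG1 alone had them all below, as did 14.9% of all genes. With the limma fits, 5 of 7 passed the adjusted threshold of 0.05 over the 4 cell types, against 71.3% of all genes, and the same number were higher in oocytes (32.9% of all genes) and 0 lower (38.3%). After IVM 4 passed (45.8% of all genes), 3 of them higher (30.3%) and 1 lower (15.5%). By sign alone, 5 of 7 differences were positive in oocytes (40.3% of all genes) and 6 of 7 after IVM (64.8%). TUBA4A was counted on the median of its spots. On its hexamer probe alone the oocyte arrays overlapped TH, and on its first probe CC after IVM overlapped CC. On the second probe of TUBB3, CC after IVM also overlapped CC. Nothing is read from these counts, because the genes were chosen with the values known. Both comparisons use the 4 CC arrays, so that their differences are given only next to each other.

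The scale matters for direction after IVM. Over all genes the median difference between CC after IVM and CC was 0.37, but 0.05 over the 11891 genes well above background on all 8 arrays, and 0.01 over all genes after quantile normalization. On the main scale the IVM differences of TUBA1C (2.58) and TUBA4A (2.60) were above the median of all genes and that of TUBB6 (0.06) was below it. After quantile normalization TUBA1C differed by 1.88 and TUBA4A by 2.58. With normexp they differed by 2.43 and 1.86, and with the deposited log2 values by 2.09 and 1.65. Of the genes called, 66.1% were higher after IVM, but 43.2% with quantile normalization and 83.3% with normexp. For oocytes the median difference was -0.52 over all genes and 0.19 over the 10012 genes detected on all 16 arrays, and 46.2% of called genes were higher, against 26.4% with normexp.

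Of 19 symbols of other tubulins, 13 were on the array, some of the remaining symbols being older names of these. In oocytes 6 of the 13 were higher (32.9% of all genes), 3 were lower (38.3%), and 4 did not pass (adjusted p under 0.05 in limma, as throughout). The median of the 13 was -0.03 against -0.52 over all genes. TUBE1 and TUBD1, the epsilon- and delta-tubulins of centrioles, were higher by 3.95 ± 0.13 (SE, 15.4-fold) and 3.60 ± 0.12 (12.1-fold). TUBA3E (2.18 ± 0.34), TUBA1D (1.96 ± 0.42), and TUBB4B (0.59 ± 0.23, not passing within either slide) completed the risers with TUBG2, although both TUBA3E probes have the same sequence as probes of another transcript. The falls were in TUBB5, which RefSeq lists as TUBB (-3.92 ± 0.31), in the locus the array names TUBB at chr28:3159664-3160998 (-2.59 ± 0.38, but -0.80 and not passing on its brightest probe), and in TUBA1A (-3.41 ± 0.24).

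TUBA1A, the alpha-tubulin known for its part in brain development, shows how far 2 probes of a gene can part. Its hexamer probe read -1.83, -2.45, -1.57, and -2.10 in oocytes and 5.34 to 6.60 in TH, GC, and CC. Its second probe read 2.87, 2.15, 2.87, and 2.62 in oocytes and 0.37 to 2.45 in the same somatic cells. The oocyte arrays were therefore below all somatic arrays on the first, with a difference of -7.91 ± 0.20 (SE), and higher on average by 1.10 ± 0.27, with overlap, on the second. On the hexamer probe CC after IVM (6.65 to 7.19) also lay above CC (5.46 to 5.72) by 1.38 ± 0.14, beside 0.08 ± 0.39 on the other. TUBB4A (-0.51 ± 0.28), TUBA8 (-0.20 ± 0.35), and TUBAL3 (-0.03 ± 0.22) did not pass in oocytes. For TUBA8 and TUBAL3 the probes above background on all somatic arrays gave -2.63 ± 0.16 and -3.30 ± 0.15, next to probes above background on 0 of them. TUBB1 was not well above background on any array.

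After IVM 3 of the 13 were higher (30.3% of all genes) and 4 lower (15.5%), with a median of 0.05 against 0.37 over all genes. TUBD1 fell by 1.89 ± 0.27 (SE, 3.70-fold, adjusted p = 0.00069), TUBB5 by 0.89 ± 0.27, and TUBA8 by 1.03 ± 0.35, beside TUBG2. The TUBA8 value is a middle between a probe above background on all CC arrays, which gave -2.17 ± 0.27, and one above background on 0 arrays of CC and CC after IVM. The calls of TUBA8, TUBB5, TUBA1A, and TUBAL3 were each lost under at least 1 alternative. TUBA1A rose by 0.73 ± 0.23 (adjusted p = 0.028). TUBAL3 was called higher (adjusted p = 0.0075), but its 3 probe sequences differed in detection. The one above background on all arrays gave 0.85 ± 0.18, while the others were above background on 0 CC arrays. TUBB1 was called while below background. TUBE1 (-0.61 ± 0.34), TUBB (-0.56 ± 0.29), TUBB4A (0.41 ± 0.30), TUBB4B (0.39 ± 0.21), TUBA1D (0.08 ± 0.24), and TUBA3E (0.05 ± 0.31) did not pass.

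**Figure D3:**
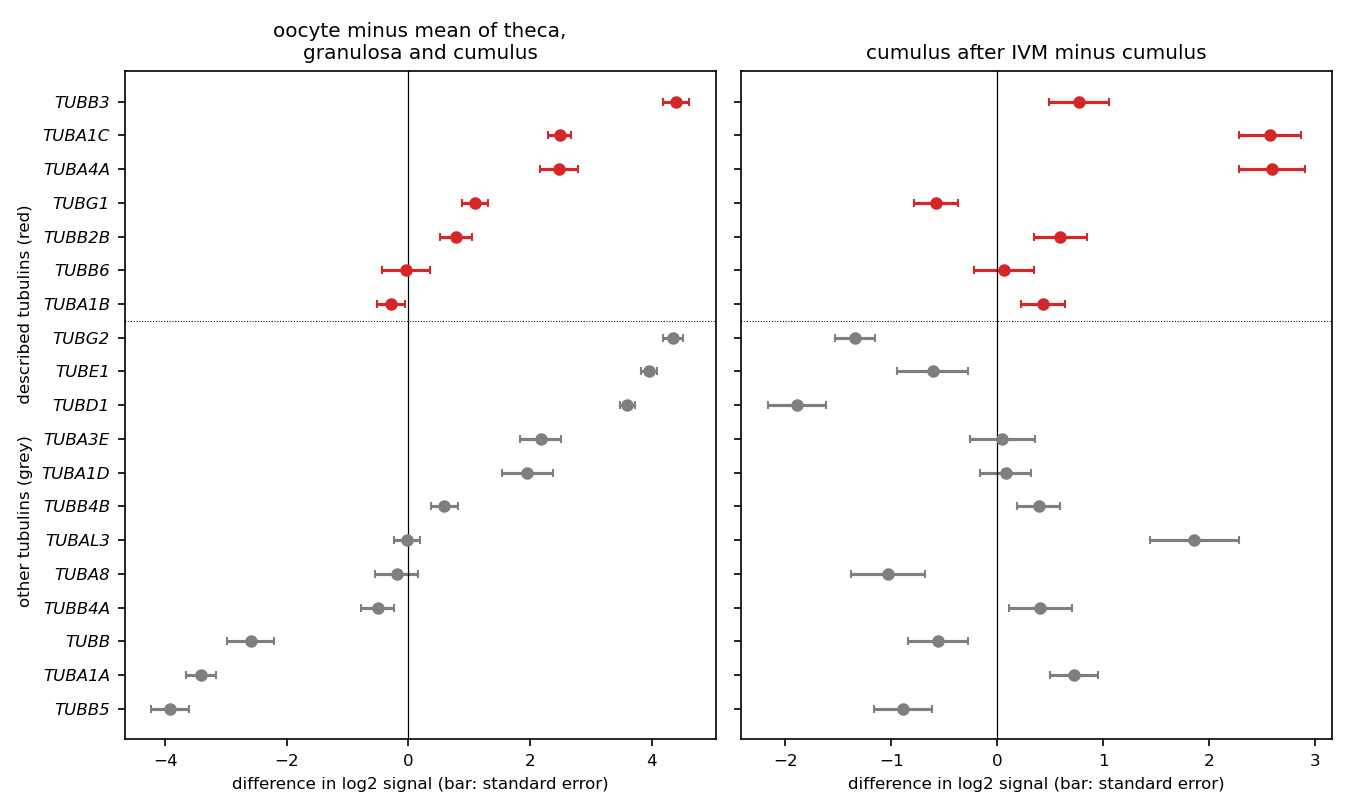
Differences in log2 signal of the 7 tubulins (red) and the 12 other tubulins above background (grey), for oocytes against the somatic mean (left) and CC after IVM minus CC (right), with standard errors. TUBA1C and TUBA4A lie at 2.58 and 2.60 after IVM, where TUBG1, TUBG2, and TUBD1 are below 0.

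The proteins that fold, nucleate, bind, cut, and modify tubulin were followed in 6 further lists, which with the other tubulins held 111 genes on the array out of 122 listed. In oocytes 50 of the 111 were higher, 35 lower, and 26 not called, beside 32.9% and 38.3% of all genes in the 2 directions. Over the cell types 93 differed, beside 71.3% of all genes. After IVM 23 were higher and 40 lower, beside 30.3% and 15.5% of all genes, and the median was -0.04 against 0.37. The number higher after IVM was the least stable count, being 12 with quantile normalization, 47 with normexp, and 13 and 15 without CC replicate 1 or 3.

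For folding of new tubulin, the chaperonin CCT, prefoldin, and the cofactors TBCA to TBCE were listed with related genes, 21 in all. In oocytes 12 were higher (57.1%, beside 32.9% of all genes) and 7 lower (33.3%, beside 38.3%). The chaperonin subunit CCT5 was higher by 1.99 ± 0.18 (SE, adjusted p = 6.7e-08) and LRRC35, the array's name for the cofactor-like TBCEL, by 2.17 ± 0.16, which was 0.021 and did not pass with normexp. On the oocyte arrays CCT6A was never well above background, which made it at least 1.22-fold lower. After IVM 6 were higher (28.6%, beside 30.3% of all genes), among them the prefoldin subunit VBP1 (1.24 ± 0.21, adjusted p = 0.0015). Another 2 were lower (9.5%, beside 15.5%), the dimer assembly cofactors TBCD (-2.52 ± 0.46) and TBCE (-1.76 ± 0.22). Of the 2 genes of tubulin mRNA control, TTC5 was higher in oocytes by 2.49 ± 0.14 (adjusted p = 2.3e-10) and lower after IVM by 2.18 ± 0.17 (4.53-fold, adjusted p = 1.9e-05).

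Nucleation genes, the gamma-tubulin ring and augmin subunits and their anchors, were mostly higher in oocytes (11 of 18, with 4 lower) and mostly lower after IVM (11 of 18, with 2 higher). In oocytes 61.1% were higher and 22.2% lower, beside 32.9% and 38.3% of all genes. After IVM 61.1% were lower and 11.1% higher, beside 15.5% and 30.3%. The ring subunits TUBGCP6 and TUBGCP2 were among those lower in oocytes, by 4.76 ± 0.18 (27.1-fold) and 2.86 ± 0.51, and the augmin subunit HAUS6 was higher by 2.69 ± 0.11. After IVM the ring subunit TUBGCP5 fell by 3.62 ± 0.32 (12.3-fold, adjusted p = 3.9e-05), the pericentriolar scaffold PCNT by 2.69 ± 0.22, and HAUS4 by 2.11 ± 0.28. TUBG1 lay on the same sides in both comparisons.

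Binding proteins were split in oocytes, with 11 of 29 higher (37.9%) and 10 lower (34.5%), close to the 32.9% and 38.3% of all genes. The largest rises were in MAPT, the axonal protein tau (6.91 ± 0.21, 120-fold), the spindle protein TACC3 (6.01 ± 0.31, 64.6-fold), and the plus-end protein MAPRE2 (5.29 ± 0.21), the last above background on only 1 of 4 GC arrays. After IVM 7 rose (24.1%, beside 30.3% of all genes) and 12 fell (41.4%, beside 15.5%). DCLK1, a doublecortin-like kinase on microtubules, rose by 4.78 ± 0.59 (27.4-fold, adjusted p = 0.00027), but by 0.22, which did not pass, on its brightest probe alone, while the spindle pole protein NUMA1 fell by 2.28 ± 0.33 and TACC3 by 2.25 ± 0.30.

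Among severing enzymes and proteins that hold free dimers, 6 of 11 were higher (54.5%) and 2 lower (18.2%) in oocytes, beside 32.9% and 38.3% of all genes. The katanin-like KATNAL1 was higher by 3.18 ± 0.18 and spastin (SPAST) by 2.85 ± 0.12, and stathmin (STMN1), which binds free dimers, was lower by 2.48 ± 0.14. After IVM 3 were higher (27.3%, beside 30.3% of all genes) and 3 lower (27.3%, beside 15.5%). The falls were in FIGNL1 (1.90 ± 0.32), KATNAL1 (1.31 ± 0.28, on 2 of 4 arrays of CC after IVM above background, and 0.31 higher with normexp), and SPAST (1.06 ± 0.18).

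Of the modifying enzymes, 9 of 17 were lower in oocytes (52.9%, beside 38.3% of all genes) and 3 higher (17.6%, beside 32.9%). The deacetylase HDAC6 was lower by 3.40 ± 0.13 (10.6-fold) and the acetyltransferase ATAT1, which has the opposite action on alpha-tubulin, by 2.38 ± 0.17, whereas the glutamylase TTLL4 was higher by 3.18 ± 0.10. After IVM 2 rose (11.8%, beside 30.3% of all genes) and 7 fell (41.2%, beside 15.5%). TTL, the ligase that returns the final tyrosine, rose by 2.10 ± 0.32 (4.29-fold, adjusted p = 0.00097). TTLL4 fell by 2.18 ± 0.18 and the carboxypeptidase AGBL5 by 1.70 ± 0.32, the latter above background on 1 of 4 arrays of CC after IVM and at 0.046 with normexp.

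**Figure D4:**
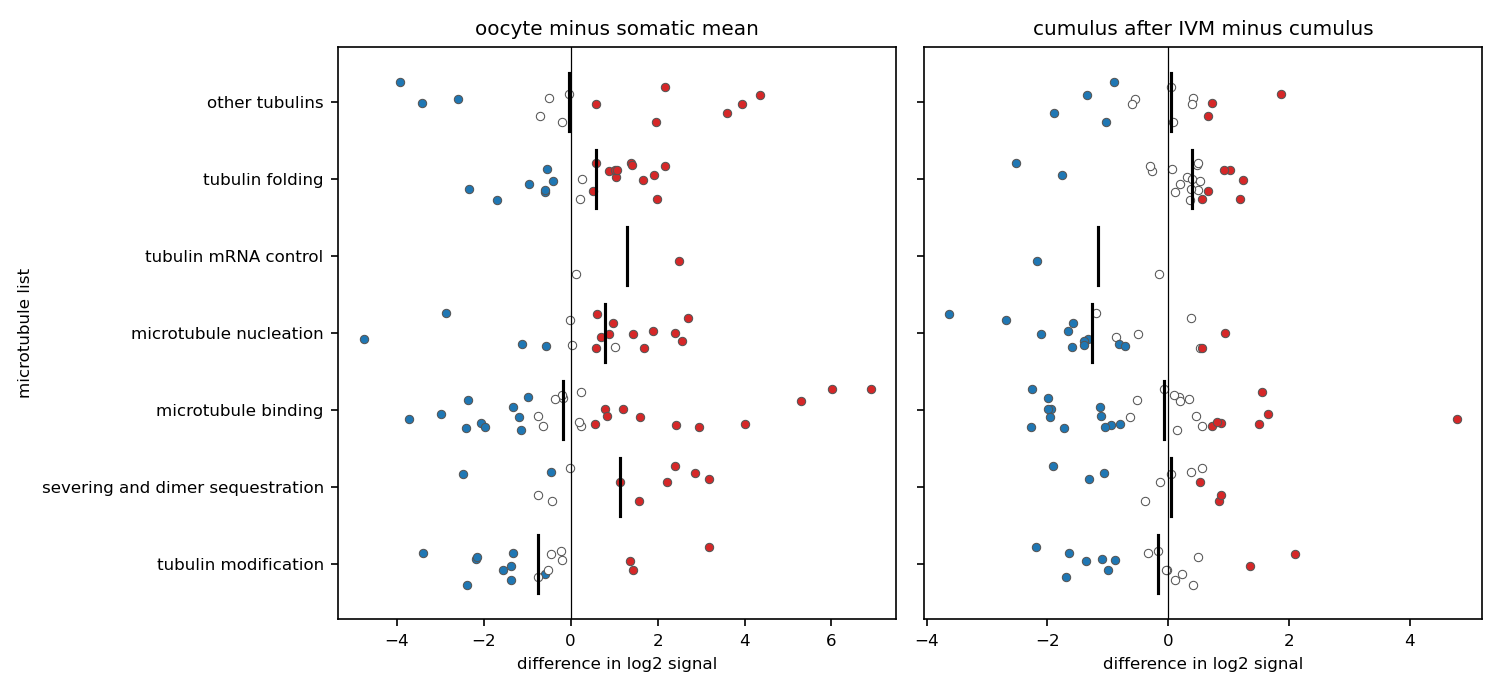
Differences in log2 signal of the 111 microtubule genes (points) by list, for oocytes minus the somatic mean (left) and CC after IVM minus CC (right). Red and blue are genes higher and lower past the adjusted threshold, white did not pass, and black lines are medians, at 0.79 for nucleation genes in oocytes and -1.27 after IVM.

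Across the 20 arrays, the profiles most like that of TUBA1C were sought by the root mean square difference after centring each gene, among 17424 genes well above background on at least 3 arrays of a group. The nearest was GTF2E2, a subunit of the general transcription factor TFIIE, at 0.34 log2 units. Its group means were 2.50 in TH, 3.20 in GC, 3.00 in CC, 5.53 in CC after IVM, and 5.69 in oocytes. IPPK, an inositol phosphate kinase, followed at 0.49, but it was above background on 1 TH array and 0 GC and CC arrays. The kinase-like STK40 was at 0.50, the corepressor TLE4 at 0.51, and a transcript without a symbol in the files at 0.52. The 7 described tubulins were not among the 17424 genes compared. No tubulin outside the 7 was among the nearest 5.

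**Figure D5:**
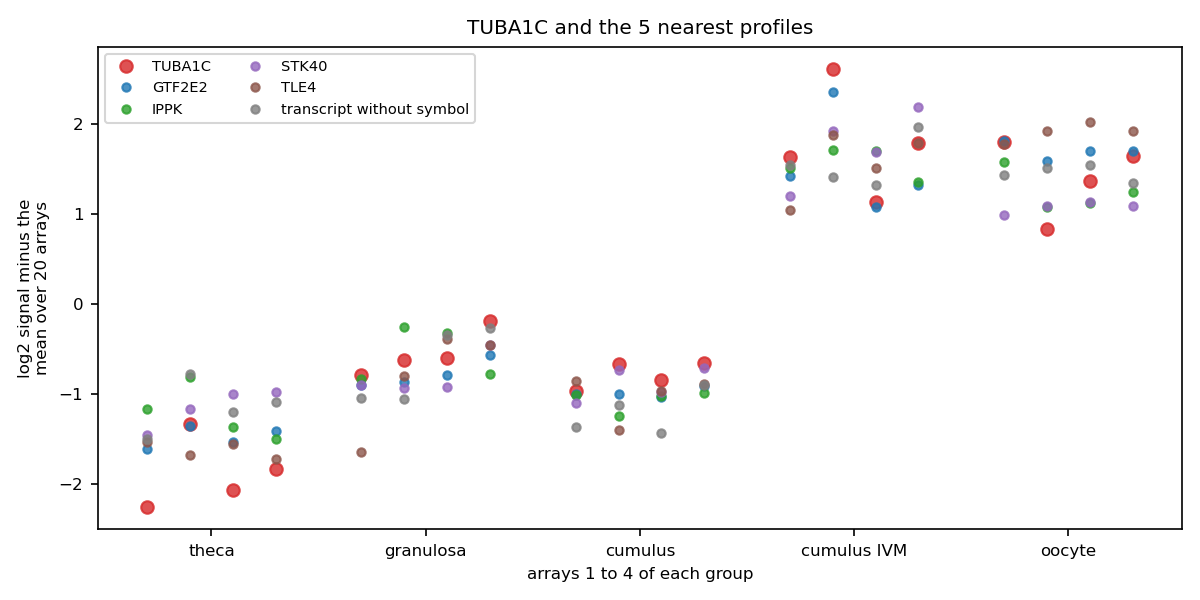
TUBA1C (red) and the 5 genes with the nearest profiles, as log2 signal minus each gene's mean over the 20 arrays, for arrays 1 to 4 of each group. All 6 profiles are low in TH, GC, and CC and high in CC after IVM and oocytes.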

How the data were processed

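Agilent 1-colour arrays of 20 samples were read from the scanner output that the authors deposited, in which intensity per spot had been background-subtracted with Feature Extraction 10.7.3.1 and not normalized between arrays. The log2 values that the authors deposited as well matched log2 median signal minus the array median within 5e-09. Control and outlier spots were left out, each array was scaled to its 75th percentile, and the median over the spots of a gene was taken. Of 61325 probes, 9779 had no gene name, and 734 of these were named by accession. Groups came from the sample titles. Using limma 3.58.1 in R 4.3.3 (data.table package, version 1.17.8), linear models with empirical Bayes moderation were run on 16 arrays for the cell types (without CC after IVM) and on 8 for IVM, with Benjamini–Hochberg adjustment over 22550 genes. Python 3.11.15 with pandas 2.3.3, numpy 2.4.6, and matplotlib 3.10.9 made summaries and figures.

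The 7 genes and the lists were chosen with earlier results of these data known. Named are the 7, other tubulins above background, up to 3 called genes with the largest differences per list and comparison, markers, and the 5 profiles nearest TUBA1C. The fits were tested on simulated data in which 200 of 22550 genes changed. At a change of 1 log2 unit the oocyte fit called 40% of them and the IVM fit 0%. At 2 units the shares were 86.5% and 72%, so genes that did not pass may still differ. In the data 71.3% of genes passed in oocytes and 45.8% after IVM, many more than were changed in the simulation. The adjusted threshold was therefore less strict on the data, where IVM differences under 1 unit passed, such as that of TUBA1A (0.73). The simulated shares are not the sensitivity of the fits to the data. The number of arrays limits the precision. Alternatives covered scaling, background (normexp, offset 50), the deposited table, the rule for probes, a filter on dim genes, 1 fit of 20 arrays, replicate or slide as a block, slides apart, the methods' analysis of variance, and leaving out each array. Each probe alone was added after the data were seen. Some marker genes are not reported here.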

Additional observations from a re-analysis of the deposited data

Results flagged for a closer look

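In 3 of the 35 groups of 4 arrays (7 genes in 5 groups), 1 array lay far from the others, its gap to the next array taking up more of the whole range than Dixon's critical value allows for 4 values. Chance gives about 1 such group in 20. TUBB6 read 4.12 in oocyte replicate 1 against 2.56 to 2.71 in the other oocyte arrays, and 3.83 in CC after IVM replicate 3 against 3.08 to 3.17 in the others. TUBB3 read 2.83 in oocyte replicate 4 against 2.53 to 2.57, a narrow group in which the gap is small in size.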

How the results depend on the processing

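For TUBA1C, TUBA4A, TUBB3, and TUBG1, both differences kept their direction under every alternative run. For TUBB2B they did too, down to 0.07 after IVM with the deposited values. Both differences of TUBA1B and of TUBB6, that of oocytes from the somatic mean and that after IVM, changed sign with the scaling. The count of microtubule genes differing over the cell types was 93, but 60 within slide 1, where 2 arrays per group remain, and that of genes lower in oocytes was 35, but 55 with normexp and 23 within slide 1. The methods' analysis of variance gave 96 unadjusted and 92 after adjustment. The 23 genes higher after IVM became 12 with quantile normalization, 47 with normexp, and 35 with slide as a random block. The number of the 7 tubulins with CC after IVM wholly above CC fell from 4 to 2 with the percentile over probes detected on all arrays and with the deposited values. Causes were not tested. Leaving out 1 array gave 90 to 98 genes over the cell types, 49 to 51 higher and 33 to 40 lower in oocytes, and 13 to 25 higher and 33 to 38 lower after IVM. It gave 5 to 6 of the 7 tubulins with a positive difference in oocytes and 5 to 6 after IVM, and 4 to 5 without overlap in each comparison. Called single genes whose sign turned were KATNAL1 (0.31) and AGBL5 (0.046) after IVM with normexp, TUBB1 (-0.0095) after IVM with quantile normalization, and TUBA1A in oocytes (1.10) on its second probe alone. Differences that had not passed also changed sign, those of TUBB4A, TUBB4B, TUBA1D, and TUBA3E after IVM and of TUBA8 and TUBAL3 in oocytes. Replicate numbers did not pair the samples across all groups. Of 40 pairs of samples with the same number, 11 had deviations that correlated above 0.1, and 13 correlated best with their own number. Between TH and GC all 4 pairs were above 0.1 (0.12 to 0.37), and between CC and CC after IVM 0 were. With the replicate number as a block, 14 rather than 23 genes were higher after IVM and 37 rather than 40 lower, and the counts for oocytes stayed at 50 and 35. A comparison of IVM within a slide could not be made.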
